A study of Mus musculus with 8 samples.

Results

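Isca2 lies on mouse chromosome 12, and 60 other protein-coding genes have their start within 2 Mb of the Isca2 start in the GENCODE annotation of GRCm38. These 60 neighbours were taken from position alone, out of 21897 protein-coding genes in the files and 642 on chromosome 12. The start is the lower coordinate of the gene, 33 neighbours lie before Isca2 and 27 after it, and Isca2 itself was left out. For a gene on the minus strand the lower coordinate is the end of the gene. For promoters and divergent pairs the start is where transcription begins. RNA was measured by sequencing in 8 libraries of mouse blastocysts at embryonic day 4.5, just before implantation. The altered genotypes were Isca2 -/- (KO, 2 libraries) and Isca2 G77S/G77S, homozygous for serine in place of glycine at residue 77 (G77S, 3 libraries), and wild type (WT, 3 libraries) was the control. Per the labels, embryos came from hormone-primed Isca2+/- females mated to Isca2+/- males, and the cross behind the G77S embryos is not described. The mouse strain, the way each allele was made, the number and sex of embryos per library and any litter or batch are not stated in the labels. The p-values therefore measure the spread among these libraries, part of which may be technical.

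Isca2 encodes a mitochondrial carrier protein for the late steps of iron-sulfur cluster assembly. Genes that lie side by side on a chromosome can share a promoter, an enhancer or a domain of open chromatin, and they are inherited together with any allele that lies between them. A promoter that serves a pair of genes transcribed away from each other is called divergent, and such promoters are usually rich in CpG dinucleotides. The comparison of the neighbours across genotypes and distances asks whether a change at Isca2 is seen beyond Isca2.

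The results turn on 4 promoter windows, printed as RefSeq gives them on GRCm38.p6, from 250 bases before to 50 bases after the RefSeq start. RefSeq starts can differ by some bases from the GENCODE starts, which set the gene positions and the capitals between Isca2 and Npc2. Isca2 (chr12:84773251-84775088, plus strand) and Npc2 (chr12:84754562-84773152, minus strand) are transcribed away from each other, and 98 bases lie between their annotated starts. Their promoters share 257 bases, so the pair is shown once, from the Isca2 side (chr12:84773020-84773319, plus strand), with the 98 bases between the starts in capitals. The promoters of Flvcr2 (chr12:85746289-85746588, plus strand), Ift43 (chr12:86082311-86082610, plus strand) and Dpf3 (chr12:83487687-83487986, minus strand) belong to the 3 neighbours that passed the test in some comparison, and capitals mark their CpG dinucleotides.
Isca2 and Npc2: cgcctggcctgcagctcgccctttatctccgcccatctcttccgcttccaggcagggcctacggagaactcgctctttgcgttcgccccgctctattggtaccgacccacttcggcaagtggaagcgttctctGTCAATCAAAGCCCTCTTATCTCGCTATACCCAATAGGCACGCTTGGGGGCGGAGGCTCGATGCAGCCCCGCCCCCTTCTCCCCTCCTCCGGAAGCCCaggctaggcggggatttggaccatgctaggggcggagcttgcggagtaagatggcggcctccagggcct
Flvcr2: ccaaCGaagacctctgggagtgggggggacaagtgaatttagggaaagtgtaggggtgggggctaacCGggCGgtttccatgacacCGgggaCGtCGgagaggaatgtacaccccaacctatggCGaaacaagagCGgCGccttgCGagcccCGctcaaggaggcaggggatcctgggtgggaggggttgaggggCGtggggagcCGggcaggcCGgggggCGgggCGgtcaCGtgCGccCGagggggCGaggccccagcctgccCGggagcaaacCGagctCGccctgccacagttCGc
Ift43: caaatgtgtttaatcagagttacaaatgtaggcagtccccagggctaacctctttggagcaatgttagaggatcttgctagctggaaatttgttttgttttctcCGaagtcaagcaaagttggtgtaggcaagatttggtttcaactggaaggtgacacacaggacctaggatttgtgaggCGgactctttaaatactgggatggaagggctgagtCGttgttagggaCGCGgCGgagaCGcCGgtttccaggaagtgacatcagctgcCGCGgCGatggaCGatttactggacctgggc
Dpf3: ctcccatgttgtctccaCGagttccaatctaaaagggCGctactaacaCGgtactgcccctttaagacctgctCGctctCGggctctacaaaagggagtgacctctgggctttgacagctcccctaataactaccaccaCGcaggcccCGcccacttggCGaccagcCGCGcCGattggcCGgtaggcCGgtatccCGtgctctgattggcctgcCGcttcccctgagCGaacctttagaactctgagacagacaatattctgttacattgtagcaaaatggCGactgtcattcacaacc
The 300 bases held 22 CpG for Isca2, 24 for Flvcr2, 12 for Ift43 and 17 for Dpf3. Over 27025 promoters of the same length the median was 7 CpG, and over the 48 neighbours with a promoter in the table it was 16. The larger set was not limited to protein-coding genes, as the neighbours were, so these medians and the shares below compare unlike sets. Fewer CpG than in the Isca2 promoter were found in 76.7% of all promoters, and the shares were 80.0% for Flvcr2, 59.9% for Ift43 and 68.1% for Dpf3. The 98 bases between the Isca2 and Npc2 starts held 6 CpG at 63.3% G and C. They also held 1 copy of CCAAT, read on both strands, a motif that occurred in 25 of the 48 neighbours' promoters (52.1%) and in 37.9% of all promoters. These matches describe letters and not bound sites.

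The Isca2 transcript followed the genotype labels. Its level in CPM (counts scaled by TMM factors to a common library total) was 4.84 and 6.20 in KO libraries, 89.1, 105 and 133 in G77S libraries, and 86.9, 173 and 154 in WT libraries. Both KO libraries lay far below every other library, and the G77S and WT ranges overlapped. The KO versus WT log2 fold change was -4.64 (SE 0.41, n = 2 and 3). Its p by edgeR's quasi-likelihood test, adjusted by Benjamini-Hochberg over all genes tested, was 0.00387. Without KO replicate 2 it was -4.83 with an adjusted p of 0.0889. The G77S versus WT log2 fold change was -0.34 (SE 0.29, adjusted p = 0.577, edgeR), and the G77S versus KO value was 4.30 (SE 0.40, adjusted p = 0.00099, edgeR). Codon 77 is GGT, a glycine codon, at chr12:84773847-84773849 of GRCm38, in coding exon 3 of 4 and 596 bases after the gene start, so the altered codon lies outside the printed promoter.

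The libraries held 10323965 to 23842619 expected counts in total, and 3 counts corresponded to 0.139 to 0.298 CPM. Mean fragment lengths, read from the files, were 181.4 to 185.1 bases for all 3 G77S libraries, against 242.7 to 291.1 bases for KO and WT. The effects of library preparation and of the G77S allele therefore cannot be told apart. Y-linked protein-coding genes summed to 36.5 CPM in WT replicate 1 and 86.4 CPM in G77S replicate 1. In the other libraries the sum was 265 to 439 CPM, so the sex of the embryos may differ between libraries. Its part in the results below was not tested. All 12 trophectoderm, 12 epiblast and 12 primitive endoderm markers had a count in some library, and the epiblast factor Sox2 was at 0 in all 3 WT libraries. The 12 trophectoderm markers summed to 30000 to 33100 CPM in KO libraries, 7810 to 11400 CPM in G77S libraries and 28400 to 30600 CPM in WT libraries. Most of each sum came from Fabp3 and Krt18. Of the 12, 8 had all G77S libraries below all WT libraries, against 11.8% of all genes tested. Cdx2, Gata3, Tfap2c and Tead4 overlapped, Gata3 being at 113, 119 and 112 CPM in G77S and 155, 122 and 76.1 CPM in WT libraries. In KO versus WT 3 of the 12 (Gata2, Tfap2c and Eomes) lay lower and 0 higher, against 12.5% and 13.1% of all genes tested. The 12 epiblast markers summed to 622 to 763 CPM in KO, 789 to 965 CPM in G77S and 577 to 645 CPM in WT libraries. Of these 12, 8 lay higher and 3 lower in both KO libraries than in every WT library, against 13.1% and 12.5% of all genes tested. In G77S versus WT 7 lay higher and 1 lower, against 17.2% and 11.8%. Nanog had 53.4 and 27.4 CPM in KO and 297, 266 and 221 CPM in WT libraries. Tdgf1 had 120 and 158 CPM in KO and 0.223, 0.199 and 13.3 CPM in WT libraries. The 12 primitive endoderm markers summed to 1160 to 1790 CPM in KO, 584 to 1170 CPM in G77S and 1140 to 1470 CPM in WT libraries, most of it from Dab2. Apart from Dab2 and Foxa2, the other 10 were higher in both KO libraries than in every WT library, against 13.1% of all genes tested. Among them Srgn was at 249 and 83.0 CPM in KO and 1.84, 0.0993 and 1.07 CPM in WT libraries. Some were near the floor, such as Sox17 at 1.06 and 0.901 CPM and Sox7 at 0.472 and 2.23 CPM in KO libraries. The count filter passed 10 of the 12, so the list holds untested genes while the 13.1% covers tested genes only. The cumulus cell markers Foxl2, Fshr, Has2 and Ptx3 and the fibroblast marker Col1a2 were at 0 in all 8 libraries. In such bulk samples fewer cells of a type and less RNA per cell cannot be told apart, and the part of these marker differences in the KO and G77S results below was not tested.

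The neighbours differed widely in abundance in blastocysts. Of the 60, 8 had 0 counts in all 8 libraries (Acot4, Gm49366, Vrtn, Syndig1l, Prox2, Pgf, Tgfb3 and Vash1), and 10 more had too few counts to be tested, the highest total being 78 counts for Zc2hc1c. The other 42 neighbours were tested, 22 before and 20 after Isca2, among 13953 genes tested in all. With Isca2 left out, 11802 protein-coding genes were tested, of the 21897 in the files. An average of at least 10 CPM was reached by 21 of the 42, and by 6103 of the 13953. A count was present in every library for 32 neighbours, and 18 had at least 10 CPM in every library. On the TPM scale, a share of a library's transcripts that corrects for length, Fcf1 was the highest neighbour, at 914 ± 214 TPM in KO, 700 ± 51.1 TPM in G77S and 820 ± 111 TPM in WT libraries (mean ± SD, n = 2, 3 and 3). Fcf1 encodes a factor that processes ribosomal RNA of the small subunit. Tmed10, a cargo receptor of traffic between endoplasmic reticulum and Golgi, had 340 ± 7.22 TPM in KO, 403 ± 45.2 TPM in G77S and 392 ± 8.98 TPM in WT libraries. Ift43 stood at 191 ± 14.1 TPM in KO, 99.4 ± 12.7 TPM in G77S and 171 ± 26.8 TPM in WT libraries, and Isca2 itself had 6.25 ± 0.87 TPM in KO, 164 ± 42.4 TPM in G77S and 185 ± 42.6 TPM in WT libraries. Together Npc2, Fcf1 and Tmed10 held 55.8% to 67.1% of the CPM of all 60 neighbours in each library.

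The share of neighbours past the test was 0 in KO versus WT and small in both G77S comparisons. In KO versus WT, 0 of the 42 tested neighbours passed an adjusted p of 0.05 in edgeR, where 0.122% of all genes tested did (0.0788% higher and 0.0430% lower). An unadjusted p under 0.05 was reached by 6 of 42, against 13.0% of all genes, while DESeq2 called 1 (Dpf3, lower), against 4.52% of all genes, and limma on log2(TPM + 1) called 0, against 0.681%. In G77S versus WT 1 neighbour was called, Flvcr2, which was higher, where 3.39% of all genes were called and 1.30% were called higher and 2.09% lower. In G77S versus KO 3 were called, Flvcr2 and Dpf3 higher and Ift43 lower, where 4.19% of all genes were called, 1.76% higher and 2.43% lower. An unadjusted p under 0.05 was reached by 9 of 42 in G77S versus WT and 10 of 42 in G77S versus KO, where the shares over all genes were 20.0% and 20.7%. DESeq2 and limma on log2(TPM + 1) called 3 and 5 neighbours in G77S versus WT, against 10.9% and 10.5% of all genes, and 7 and 5 in G77S versus KO, against 12.1% and 13.3%. Without any 1 G77S library, 0 neighbours were called by edgeR in either G77S comparison, and the share over all genes was 0.622% to 1.32% in G77S versus WT and 1.16% to 1.75% in G77S versus KO. Without KO replicate 1 the count in G77S versus KO was 1 (1.48% of all genes) and without KO replicate 2 it was 0 (1.17%). Without WT replicate 1 the count in G77S versus WT was 2 (4.76% of all genes), Ift43 being added. These 3 comparisons share libraries in pairs and are not independent of each other.

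**Figure D1:**
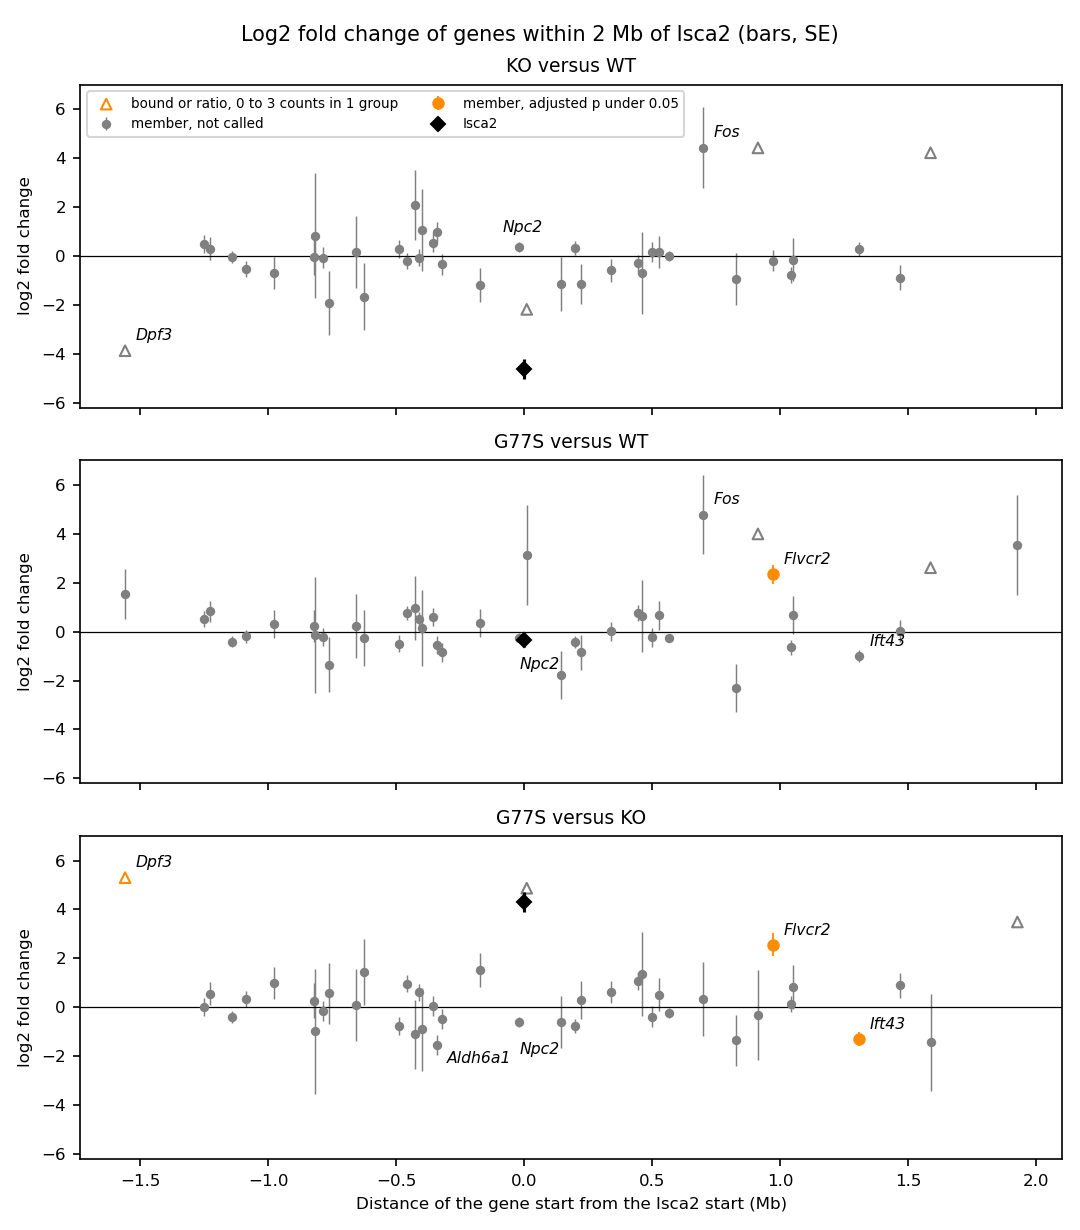
Log2 fold change (vertical axis) of the 42 tested neighbours and of Isca2 against the distance of the lower gene coordinate from the Isca2 start in Mb (horizontal axis). The panels are KO versus WT, G77S versus WT and G77S versus KO from top to bottom, bars are SE, and open triangles are bounds or ratios where a group held 0 to 3 counts. Angel1, which has no fold in KO versus WT, is not drawn in the top panel. Isca2 stands at -4.64, -0.34 and 4.30 in the 3 panels, and the called neighbours, in orange, lie 973.3 kb (Flvcr2) and 1309.3 kb (Ift43) after it and 1559.5 kb before it (Dpf3).

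Neighbours whose libraries did not overlap between groups were read against the same background. In KO versus WT 9 of 42 neighbours had KO libraries all on one side of the WT libraries, against 25.6% of all genes, with 4 neighbours higher (13.1% of all genes) and 5 lower (12.5%). In G77S versus WT the number was 15 of 42, against 29.0% of all genes, with 9 higher (17.2%) and 6 lower (11.8%). In G77S versus KO it was 14 of 42, against 44.9%, with 9 higher (24.9%) and 5 lower (20.0%). Over the tested neighbours the median log2 fold change was -0.08 in KO versus WT, against -0.06 over all genes tested. It was 0.19 in G77S versus WT, against 0.03, and 0.22 in G77S versus KO, against 0.10. With genes at 0 to 3 counts placed at their bound or ratio, and 1 neighbour with no fold left out of KO versus WT, the medians were -0.07, 0.19 and 0.22. Single libraries moved the G77S medians. The G77S versus WT median was -0.08 without G77S replicate 1, 0.33 without WT replicate 1 and 0.04 without WT replicate 3. The G77S versus KO median was -0.07 without G77S replicate 1 and 0.56 without KO replicate 1.

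The size of the difference was spread over the window without a steady order by distance. In KO versus WT the median size of the log2 fold change was 1.15 for the 6 tested neighbours under 0.25 Mb, 0.45 for the 12 at 0.25 to 0.5 Mb, 0.69 for the 13 at 0.5 to 1 Mb and 0.54 for the 11 at 1 to 2 Mb. For the 69 tested genes 2 to 10 Mb away it was 0.49, for the 289 on the rest of the chromosome 0.53, and for all 11802 protein-coding genes tested 0.58. The signed median of the 6 nearest in KO versus WT was -1.15, against -0.06 over all protein-coding genes. In the next bins it was 0.04, -0.05 and -0.16. Fitted values were negative for Abcd4 (-1.19, SE 0.68), Ylpm1 (-1.15, SE 0.80), Arel1 (-1.14, SE 1.10) and Ltbp2 (-1.82, SE 2.39). They were positive for Npc2 (0.36) and Fcf1 (0.33). Of the 6, 4 passed 2-fold, against 3639 of the 11802, and 0 had an adjusted p under 0.05 (edgeR). Ltbp2, Arel1, Ylpm1 and Abcd4 were each under 20 CPM in every library. The bin's median abundance was 2.64 on the log2 CPM scale, against 4.77 in the next bin and 2.25 in the bin at 0.5 to 1 Mb. In G77S versus WT the 4 bins had medians of 0.64, 0.58, 0.31 and 0.68 from near to far, and all protein-coding genes 0.64. In G77S versus KO they had 0.68, 0.83, 0.52 and 0.84, and all protein-coding genes 0.73. Across the 42 genes Spearman's rho of the size with distance was 0.01 in KO versus WT, 0.12 in G77S versus WT and 0.02 in G77S versus KO, while rho of the size with abundance was -0.62, -0.33 and -0.34. These are descriptions across genes that share libraries, and genes are not independent replicates.

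**Figure D2:**
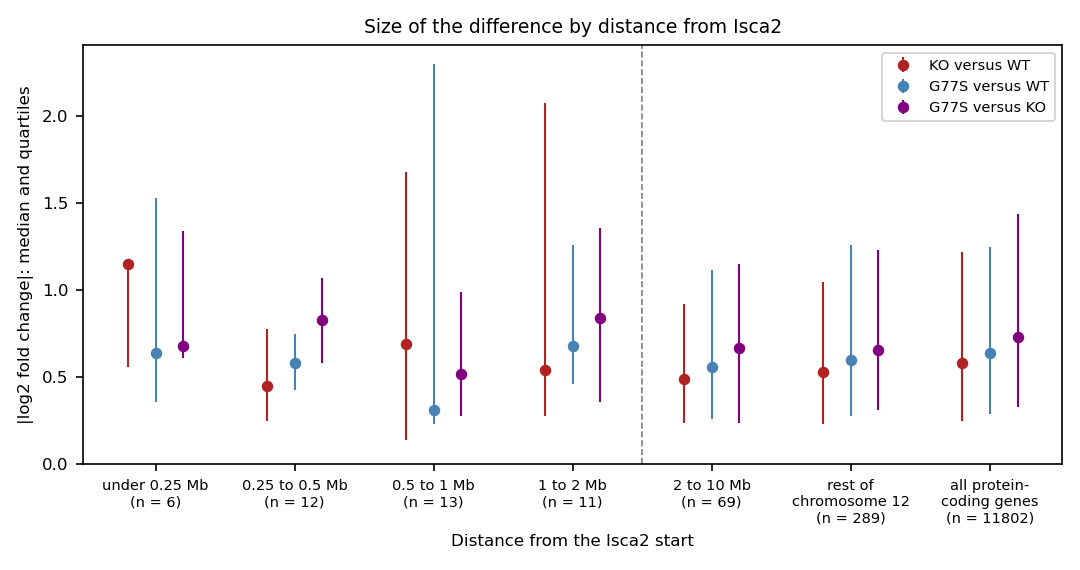
Size of the log2 fold change (vertical axis, median as a point and quartiles as a bar) in bins of distance from the Isca2 start (horizontal axis, with the number of tested genes), for KO versus WT, G77S versus WT and G77S versus KO. The 4 bins left of the dashed line hold the 42 tested neighbours, and their medians run from 0.31 to 1.15, with 0.58 to 0.73 for all protein-coding genes.

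Among the 21 neighbours with an average of at least 10 CPM the differences were smaller and easier to bound. In KO versus WT their log2 fold changes had a median size of 0.31, against 0.38 over the 6103 genes of that abundance. The largest size was 0.96, and 0 of 21 passed 2-fold, against 12.4% of such genes. In G77S versus WT the median size was 0.51, against 0.47, and 1 of 21 passed 2-fold, against 18.5%. In G77S versus KO the median size was 0.61, against 0.55, and 4 of 21 passed 2-fold, against 23.7%. The 4 were Flvcr2, Ift43, Aldh6a1 and Eif2b2.

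Npc2, whose start faces that of Isca2, encodes a cholesterol-binding protein of the lysosome. It had 673 and 598 CPM in KO libraries, 433, 428 and 386 CPM in G77S libraries, and 442, 552 and 489 CPM in WT libraries. Both KO libraries lay above all WT libraries, and all G77S libraries lay below all WT libraries. The KO versus WT log2 fold change was 0.36 (SE 0.20, 95% confidence interval -0.07 to 0.80, adjusted p = 0.473, edgeR), so a fall of the size seen for Isca2 lies outside the interval. The G77S versus WT value was -0.25 (SE 0.18, interval -0.64 to 0.14, adjusted p = 0.481, edgeR), and on the log2(TPM + 1) scale it was 0.08. Between the altered genotypes the G77S versus KO log2 fold change of Npc2 was -0.61 (SE 0.20, interval -1.05 to -0.18), which missed the threshold in edgeR (adjusted p = 0.113) and passed it in DESeq2 (adjusted p = 0.0227). In TPM the Npc2 means were 140 ± 19.4 in KO, 132 ± 11.9 in G77S and 125 ± 8.42 in WT libraries (SD, n = 2, 3 and 3).

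**Figure D3:**
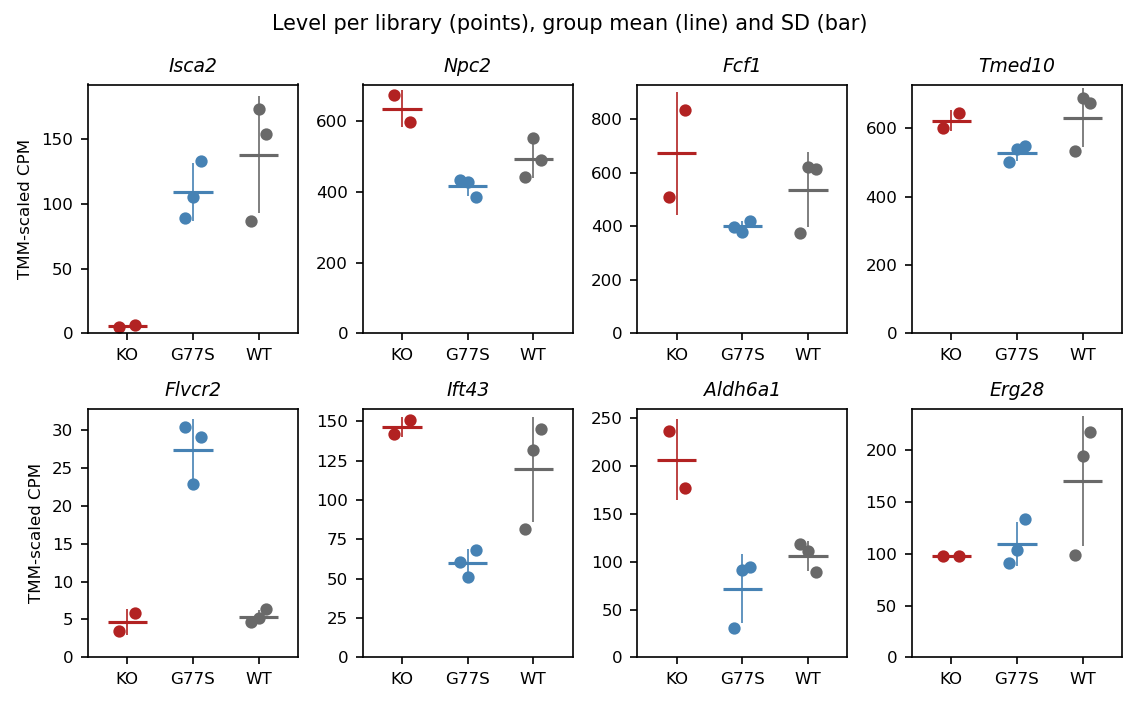
Level in TMM-scaled CPM (vertical axis, from 0) of Isca2 and 7 neighbours in each library, with the KO, G77S and WT groups along the horizontal axis. Points are libraries, lines group means and bars SD. Isca2 is at 4.84 and 6.20 CPM in KO libraries while Npc2, with 98 bases between the starts, is at 673 and 598 CPM there, and Flvcr2 stands at 22.8 to 30.3 CPM in G77S libraries, against 4.63 to 6.35 CPM in WT libraries.

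On the other side of Isca2 the nearest neighbour is Ltbp2, a matrix protein of the latent TGF-beta binding family. Its lower coordinate lies 9961 bases after the Isca2 start. Ltbp2 is on the minus strand, so this is the end of the gene, and its transcription begins at chr12:84876532. Its level was 0 and 0.159 CPM in KO libraries, 1.54, 0 and 6.68 CPM in G77S libraries, and 0, 0 and 0.88 CPM in WT libraries. Reads were thus seen in 1 KO, 2 G77S and 1 WT library. The ratio of counts was 0.219 for KO over WT (95% counting interval 0.0414 to 0.743) and 29.2 for G77S over KO (9.69 to 144), and the adjusted p was 0.823 and 0.328 in edgeR. Arel1, a ubiquitin ligase that restrains apoptosis, had 3.66 and 3.39 CPM in KO libraries, 2.73, 0.476 and 3.73 CPM in G77S libraries, and 18.1, 1.29 and 3.98 CPM in WT libraries. WT replicate 1 stood apart, and neither altered group separated from WT (log2 fold change -1.14, SE 1.10 in KO and -1.76, SE 0.98 in G77S, adjusted p 0.729 and 0.351, edgeR). Ylpm1 had 3.25 and 2.33 CPM in KO libraries, 3.64, 2.92 and 3.73 CPM in G77S libraries, and 12.3, 3.38 and 2.87 CPM in WT libraries, with WT replicate 1 again the highest. Dlst, the lipoyl-carrying E2 subunit of 2-oxoglutarate dehydrogenase, had 14.5 and 10.5 CPM in KO, 22.0, 16.0 and 19.6 CPM in G77S, and 27.0, 19.2 and 10.9 CPM in WT libraries. Its log2 fold change was -0.60 (SE 0.46, adjusted p = 0.630, edgeR) in KO and 0.01 (SE 0.40, adjusted p = 0.992, edgeR) in G77S, both against WT.

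Before Isca2 the tested neighbours nearest after Npc2 were Abcd4 and Lin52. Abcd4, a lysosomal transporter of cobalamin, had 4.25 and 2.97 CPM in KO libraries, 14.9, 8.91 and 7.55 CPM in G77S libraries, and 8.92, 12.9 and 3.01 CPM in WT libraries. The G77S libraries all lay above the KO libraries, at a log2 fold change of 1.53 (SE 0.68) that did not pass the test (adjusted p = 0.235, edgeR). Lin52, a subunit of the DREAM complex that represses cell cycle genes, had 27.5 and 16.3 CPM in KO, 11.1, 16.6 and 18.9 CPM in G77S, and 25.4, 36.1 and 22.3 CPM in WT libraries. All G77S libraries lay below the WT libraries (log2 fold change -0.85, SE 0.38, adjusted p = 0.237, edgeR). Vrtn and Syndig1l, also near, were at 0 in all 8 libraries.

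In KO versus WT the neighbours with separate groups were led by Dpf3, a chromatin remodelling subunit of the BAF complex that reads acetylated histones. Dpf3 had 0 counts in both KO libraries, 4.76, 1.36 and 3.99 CPM in G77S libraries, and 2.17, 0.496 and 0.788 CPM in WT libraries. Its level was at least 14.7-fold lower in KO than in WT, taking 3 counts over the KO group as the floor. The adjusted p was 0.156 in edgeR, 0.0443 in edgeR without the count filter and 0.0123 in DESeq2. Erg28, an endoplasmic reticulum protein that in yeast tethers the enzymes of sterol synthesis, had 98.2 and 97.9 CPM in KO libraries, 91.0, 104 and 133 CPM in G77S libraries, and 98.5, 194 and 217 CPM in WT libraries. WT replicate 1 stood next to the KO values, and the log2 fold change was -0.79 (SE 0.34, adjusted p = 0.359, edgeR). The other neighbours with lower, separate KO libraries were Acot1, Elmsan1 and Gpatch2l, at -1.93, -1.68 and -0.89 (SE 1.32, 1.37 and 0.52). Single KO libraries set the first 2 values, Acot1 being at -0.93 without KO replicate 2 and Elmsan1 at -0.80 without KO replicate 1 and -4.38 without KO replicate 2.

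Higher in both KO libraries than in every WT library were Aldh6a1, Fam161b, Entpd5 and Npc2. Aldh6a1, the mitochondrial methylmalonate semialdehyde dehydrogenase of valine breakdown, had 237 and 177 CPM in KO libraries, 30.3, 91.5 and 94.2 CPM in G77S libraries, and 119, 111 and 88.9 CPM in WT libraries. The KO versus WT log2 fold change was 0.96 (SE 0.41, adjusted p = 0.359, edgeR), and the G77S versus KO value was -1.52 (SE 0.41, adjusted p = 0.0664, edgeR). G77S versus KO passed in DESeq2 (adjusted p = 0.00493), with a stricter filter (0.0394) and with no filter (6.78e-05). These settings called 12.1%, 9.72% and 6.15% of all genes, against 4.19% in the main test. The comparison missed the threshold in limma on log2(TPM + 1) (adjusted p = 0.164). In edgeR it also missed with the replicate block (0.0936), only the compared groups (0.0746) and RLE scaling (0.0575). The spans of Aldh6a1 and of Bbof1 on the other strand, introns included, share 12171 bases, and the labels do not say whether strand was used in counting, so part of the reads there may belong to either. Bbof1 had at most 43 counts in a library, where Aldh6a1 had at least 433. Fam161b and Entpd5 were under 3 CPM in every library, with log2 fold changes of 2.07 (SE 1.43) and 1.05 (SE 1.69) in KO versus WT.

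Flvcr2 was the called neighbour in G77S versus WT. It encodes a membrane transporter of the family that carries heme and choline. Its level was 3.48 and 5.83 CPM in KO libraries, 30.3, 22.8 and 29.0 CPM in G77S libraries, and 4.63, 5.16 and 6.35 CPM in WT libraries. All G77S libraries lay above all others, and the KO and WT ranges overlapped. Flvcr2 was higher in G77S than in WT by a log2 fold change of 2.34 (SE 0.40, 95% interval 1.46 to 3.23, adjusted p = 0.0127, edgeR, n = 3 each), and higher in G77S than in KO by 2.55 (SE 0.47, adjusted p = 0.0164, edgeR). In KO versus WT the value was -0.21 (SE 0.43, adjusted p = 0.907, edgeR), which was 0.01 on the log2(TPM + 1) scale and 0.12 without KO replicate 1. Leaving out any 1 G77S library gave 2.26 to 2.48 against WT with an adjusted p of 0.0556 to 0.0676, and leaving out any 1 KO or G77S library gave 2.23 to 2.97 against KO with an adjusted p of 0.0546 to 0.0938. Flvcr2 starts 973.3 kb after Isca2. Of the genes on either side of it, Batf at 913.4 kb was also higher in every G77S library than in WT, at 1.21 CPM or less (adjusted p = 0.142, edgeR), and Erg28 at 1042.2 kb gave a G77S versus WT log2 fold change of -0.64 (SE 0.30, adjusted p = 0.263, edgeR).

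Ift43, a subunit of the intraflagellar transport complex that returns cargo from cilia, fell in G77S versus KO. Its level was 142 and 151 CPM in KO libraries, 60.9, 50.9 and 68.4 CPM in G77S libraries, and 81.6, 132 and 145 CPM in WT libraries. All G77S libraries lay below all others. The G77S versus KO log2 fold change was -1.29 (SE 0.29, adjusted p = 0.0327, edgeR), and without any 1 KO or G77S library the adjusted p was 0.0732 to 0.157. The G77S versus WT value was -1.0 (SE 0.26, adjusted p = 0.0646, edgeR), and this comparison passed in DESeq2 (0.0055), in limma on log2(TPM + 1) (0.033) and in edgeR without WT replicate 1 (0.0165). The KO versus WT value was 0.29 (SE 0.29, adjusted p = 0.735, edgeR). Dpf3, at 0 in KO libraries, was at least 39.5-fold higher in G77S than in KO (adjusted p = 0.0325, edgeR). Without any 1 KO or G77S library the Dpf3 adjusted p was 0.0731 to 0.141. Between G77S and WT the Dpf3 log2 fold change was 1.53 (SE 1.02, adjusted p = 0.448, edgeR), and the ranges overlapped.

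**Figure D4:**
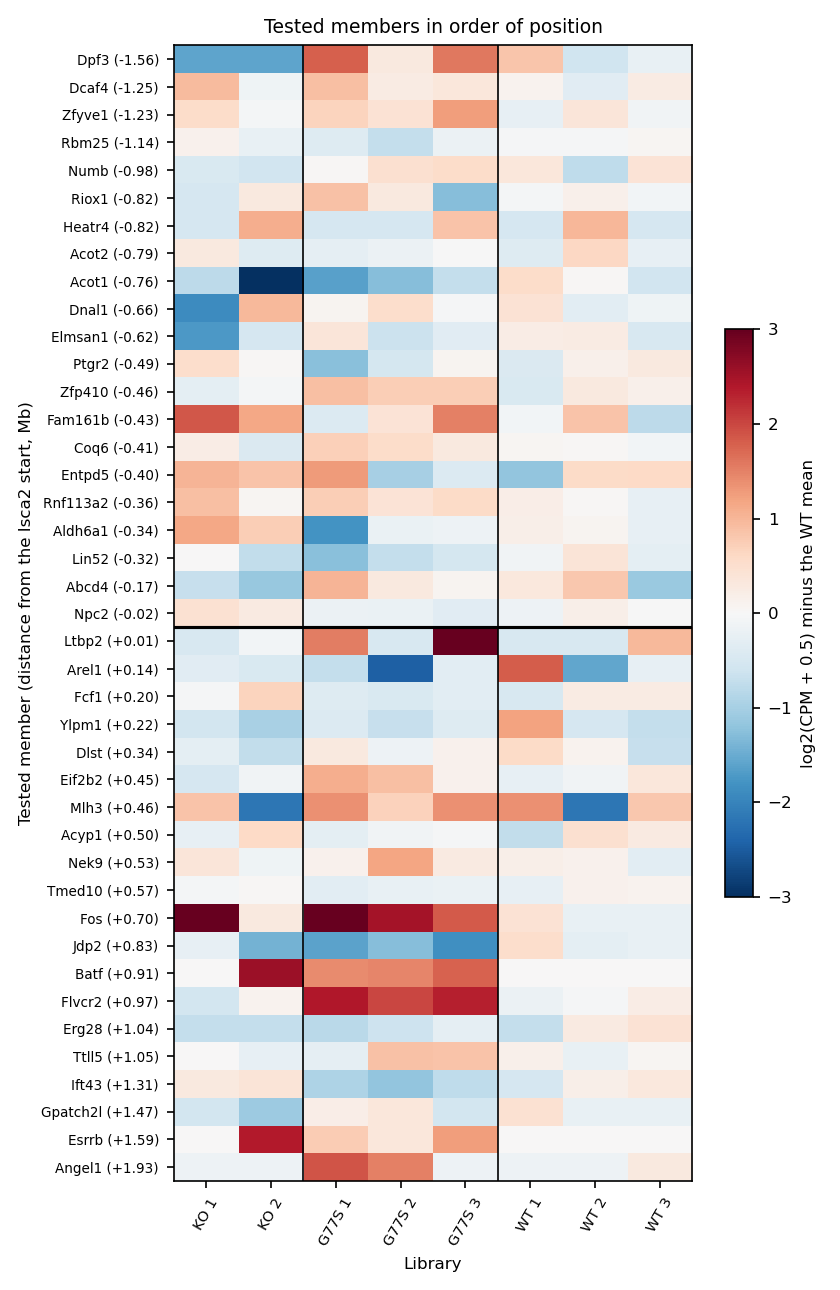
Each row is a tested neighbour (1 of the 42 is not drawn), from the start of the window (top) to its end (bottom), with its distance from Isca2 in Mb. Each column is a library and the colour is log2(CPM + 0.5) minus the WT mean, and the thick line marks Isca2. Flvcr2 (973.3 kb after Isca2) is high in all 3 G77S libraries and Ift43 (1309.3 kb after) low in them. Batf, the row above Flvcr2, is also above WT in all 3 G77S libraries.

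Of the 11 neighbours that act in transcription and chromatin, 9 were tested and 1 was called by edgeR, Dpf3 in G77S versus KO. Over all genes edgeR called 4.19% in that comparison, and lists of this size are too small to set against that share. Fos, Batf and Jdp2 encode basic leucine zipper proteins of the AP-1 family and lie together 700.6 to 913.4 kb after Isca2. Fos had 4.31 and 0.212 CPM in KO libraries, 4.27, 2.79 and 1.56 CPM in G77S libraries, and 0.279, 0 and 0 CPM in WT libraries. The G77S libraries lay above the WT libraries (log2 fold change 4.77, SE 1.61, adjusted p = 0.129, edgeR), and DESeq2 and limma on log2(TPM + 1) called Fos in this comparison, with adjusted p of 0.0195 and 0.0401. Batf had 0 and 2.44 CPM in KO libraries, 0.84, 0.884 and 1.21 CPM in G77S libraries and 0 counts in all WT libraries, at least 21.2-fold higher in KO (adjusted p = 0.249, edgeR) and at least 15.9-fold higher in G77S (adjusted p = 0.142, edgeR). The KO value of Batf came from KO replicate 2, and the G77S versus WT adjusted p was 0.0471 in edgeR without the count filter and 0.0432 with only those groups fitted. Jdp2 had 2.07 and 0.636 CPM in KO, 0.49, 0.748 and 0.347 CPM in G77S, and 3.85, 1.99 and 2.08 CPM in WT libraries, with all G77S libraries below WT (log2 fold change -2.30, SE 0.98, adjusted p = 0.219, edgeR).

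Esrrb, an orphan nuclear receptor of the naive pluripotency network, was at or near 0. It had 0 and 2.12 CPM in KO libraries, 0.35, 0.136 and 0.694 CPM in G77S libraries, and 0 counts in all WT libraries. It was at least 18.5-fold higher in KO, from KO replicate 2 alone, and at least 6.12-fold higher in G77S than in WT (adjusted p 0.294 and 0.227, edgeR). Zfp410, a zinc finger activator of the remodeller gene Chd4, had 23.7 and 27.9 CPM in KO libraries, 54.6, 48.4 and 48.8 CPM in G77S libraries, and 21.1, 35.6 and 32.4 CPM in WT libraries. All G77S libraries lay above the others, at a log2 fold change of 0.77 against WT (SE 0.29, adjusted p = 0.176, edgeR) and 0.97 against KO (SE 0.34, adjusted p = 0.137, edgeR). DESeq2 called Zfp410 in G77S versus KO, and limma on log2(TPM + 1) called it in both G77S comparisons.

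Of the 9 neighbours of mitochondrial and lipid metabolism all were tested, and edgeR called 1, Flvcr2, in both G77S comparisons. Over all genes edgeR called 3.39% in G77S versus WT and 4.19% in G77S versus KO. Coq6, a monooxygenase of ubiquinone synthesis, had 35.8 and 22.3 CPM in KO libraries, 50.1, 45.0 and 37.6 CPM in G77S libraries, and 31.7, 31.3 and 28.6 CPM in WT libraries. The G77S libraries lay above the others, at a log2 fold change of 0.53 against WT (SE 0.29, adjusted p = 0.342, edgeR). Ptgr2, a reductase of prostaglandin metabolites, had 166 and 119 CPM in KO, 48.6, 80.7 and 123 CPM in G77S, and 85.8, 128 and 141 CPM in WT libraries, and the groups overlapped in every comparison. Acyp1, an acylphosphatase, likewise overlapped in all comparisons, at 27.3 and 49.8 CPM in KO, 26.7, 30.5 and 31.8 CPM in G77S, and 19.2, 45.8 and 39.2 CPM in WT libraries. Of the 6 acyl-CoA thioesterases in the Acot cluster, which release fatty acids from coenzyme A, Acot1 and Acot2 were tested and neither was called. Acot1 had 4.13 and 0 CPM in KO, 2.10, 2.79 and 4.34 CPM in G77S, and 11.1, 7.74 and 4.82 CPM in WT libraries. Both altered groups lay below WT, at log2 fold changes of -1.93 (SE 1.32) and -1.36 (SE 1.12) with adjusted p of 0.585 and 0.557 in edgeR. The Acot genes are close copies, and how far they share reads was not measured, so the split between them is uncertain.

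The 7 neighbours of RNA processing and translation were all tested and edgeR called 0 in any comparison. Over all genes edgeR called 0.122% to 4.19%. An unadjusted p under 0.05 held for Eif2b2 in both G77S comparisons and for Fcf1 and Angel1 in G77S versus KO, and DESeq2 and limma called Eif2b2 alone among these genes. Eif2b2, a subunit of the exchange factor that recharges the initiation factor eIF2, had 28.8 and 37.9 CPM in KO libraries, 88.0, 76 and 44.9 CPM in G77S libraries, and 34.5, 37.7 and 52.0 CPM in WT libraries. The G77S libraries lay above the KO libraries (log2 fold change 1.06, SE 0.37, adjusted p = 0.137, edgeR), with an adjusted p of 0.0475 in DESeq2 and 0.00726 in limma on log2(TPM + 1). Fcf1 had 509 and 835 CPM in KO, 397, 380 and 421 CPM in G77S, and 374, 620 and 615 CPM in WT libraries. Its G77S libraries lay below the KO libraries (log2 fold change -0.75, SE 0.28, adjusted p = 0.160, edgeR), a value of -0.35 without KO replicate 2 and -1.06 without KO replicate 1, and it overlaps Arel1 by 4 bases on the other strand. Rbm25, a splicing factor, had 152 and 120 CPM in KO, 107, 84.3 and 123 CPM in G77S, and 137, 136 and 146 CPM in WT libraries. In CPM the G77S libraries lay below WT (log2 fold change -0.42, SE 0.22, adjusted p = 0.320, edgeR), which turned to 0.48 on the log2(TPM + 1) scale. On that scale the median over all genes was -0.12 in KO versus WT, 0.23 in G77S versus WT and 0.34 in G77S versus KO.

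Of 8 neighbours in membrane traffic, cilia and microtubules 6 were tested, and Ift43 was called in G77S versus KO, against 4.19% of all genes. Tmed10 had 600 and 644 CPM in KO, 500, 538 and 547 CPM in G77S, and 532, 687 and 674 CPM in WT libraries. Its log2 fold change was -0.02 in KO versus WT (SE 0.20, interval -0.46 to 0.42, adjusted p = 0.990, edgeR), -0.26 in G77S versus WT (SE 0.18) and -0.24 in G77S versus KO (SE 0.20). The last value was 0.24 on the log2(TPM + 1) scale. Zfyve1, a lipid droplet and omegasome protein, had 12.9 and 8.32 CPM in KO, 14.1, 11.8 and 21.1 CPM in G77S, and 7.14, 11.3 and 7.92 CPM in WT libraries. The G77S libraries lay just above WT (log2 fold change 0.84, SE 0.43, adjusted p = 0.305, edgeR). The 8 neighbours of signalling and matrix, of which 3 were tested, and the 4 of DNA repair and cell cycle, of which 3 were tested, gave 0 calls in edgeR, DESeq2 and limma and 0 unadjusted p under 0.05 in edgeR. Over all genes the calls ran from 0.122% in edgeR to 13.3% in limma, and unadjusted p under 0.05 from 13.0% to 20.7%. Numb, an inhibitor of Notch signalling, had 4.83, 6.80 and 7.11 CPM in G77S libraries, all above the 3.31 and 2.97 CPM in KO libraries (G77S versus KO log2 fold change 0.99, SE 0.66, adjusted p = 0.427, edgeR), while WT libraries had 6.13, 2.58 and 6.39 CPM.

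Beside Npc2 and Isca2 the window holds 7 more divergent pairs, whose starts lie at most 1000 bases apart. They are Fam161b and Coq6, Entpd5 and Bbof1, Aldh6a1 and Lin52, Arel1 and Fcf1, Prox2 and Dlst, Acyp1 and Zc2hc1c, and Erg28 and Ttll5. In the Aldh6a1 and Lin52 pair, 417 bases apart, KO versus WT log2 fold changes were 0.96 (SE 0.41) and -0.35 (SE 0.42). In the Erg28 and Ttll5 pair, 108 bases apart, G77S versus WT values were -0.64 (SE 0.30) and 0.68 (SE 0.78), Ttll5 encoding a tubulin polyglutamylase at 1.40 to 3.74 CPM in G77S and 1.49 to 2.06 CPM in WT libraries. Erg28 and Ttll5 were at -0.79 and -0.16 in KO versus WT (SE 0.34 and 0.88), and in G77S versus WT Aldh6a1 and Lin52 were at -0.56 and -0.85 (SE 0.37 and 0.38). Both genes were tested in 5 of the 8 pairs, Npc2 and Isca2 included. The partners had the same sign in 1 of 5 pairs in KO versus WT, 4 of 5 in G77S versus WT and 3 of 5 in G77S versus KO. Partners also differed in abundance, Fcf1 reaching 835 CPM beside Arel1 at 18.1 CPM or less. Of the 8 pairs of overlapping genes in the window 5 are on opposite strands, so part of the reads of such genes may belong to either.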

How the data were processed

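The 8 libraries were prepared, per the labels' protocols, from blastocysts by full-length cDNA amplification and a transposase kit, and grouped by the genotype label. Per the submitters' processing notes, the tools were DESeq2 1.42.1, RSEM 1.3.1, STAR 2.6.1c and Trim Galore 0.4.5, on mm10 (GRCm38). For the annotation release, strand setting and filters, the answer is not given in the sources used here. Per the file headers, each library's table deposited by the authors holds the expected count per gene, TPM, FPKM, length and effective length. TPM was scaled by the authors within a library. The FPKM values deposited by the authors were not used. Length minus effective length gave the mean fragment length.

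The neighbours, gene lists and tests were chosen with earlier results of these data known. Positions came from GENCODE M21 (1-based). Expected counts were rounded, and R 4.3.3 with edgeR 4.0.16 gave the main test (TMM, group-wise filter with a minimum count of 10, 1 mean per genotype over all 8 libraries, quasi-likelihood F test, Benjamini-Hochberg adjustment over all 13953 genes, calls at an adjusted p under 0.05). SE is the size of the log2 fold change over the square root of F. A fold against 0 counts is a bound at 3 counts over the group. Counting intervals are at 95%, and like bounds cover counting error only, since reads carry no molecular identifiers. Named were Isca2, every called neighbour, the 6 nearest on each side, up to 5 per direction with the largest change and no overlap between groups, up to 3 per role list with at least 10 TPM in a group, and divergent partners. Some neighbours that the rule covers are not reported here. Neighbours given beyond that rule, as members of a count or beside a named gene, were chosen after their values were seen. Alternatives were a replicate block, only the compared groups, RLE scaling, omitting the filter, requiring 5 CPM in 2 libraries (stricter filter), DESeq2 1.42.0, limma 3.58.1 on log2(TPM + 1), each library left out and a window of 1 Mb. The fitting steps were tested on simulated data. Groups of 2 and 3 libraries limit precision (common coefficient of variation 0.655).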

Additional observations from a re-analysis of the deposited data

How the results depend on the processing

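The number of neighbours called in KO versus WT (0) became 1 with no filter (2.38% of all genes called) and 1 with DESeq2 (4.52%), against 0.122% in the main test, and leaving out any library kept it at 0 to 0. In G77S versus WT (1) it was 4 with no filter (5.82% of all genes), 2 with the stricter filter (8.66%), 2 with only the compared groups (5.63%), 3 with DESeq2 (10.9%) and 5 with limma on log2(TPM + 1) (10.5%), against 3.39% in the main test, and 0 to 2 with a library left out. In G77S versus KO (3) it was 7 with DESeq2 (12.1% of all genes) and 5 with limma on log2(TPM + 1) (13.3%), against 4.19% in the main test, and 0 to 3 with a library left out. The 1 call in G77S versus KO without KO replicate 1 was Acot1. The median log2 fold change of the neighbours stayed within the spread between libraries in KO versus WT. In G77S versus WT it was -0.06 with the stricter filter, 0.05 with the replicate block and -0.08 to 0.33 with a library left out. In G77S versus KO it was 0.45 with the replicate block, 0.50 with limma on log2(TPM + 1), 0.08 in the window of 1 Mb and -0.07 to 0.56 with a library left out. Reversed were the G77S versus WT log2 fold changes of Npc2 (0.08) and Rbm25 (0.48), the KO versus WT value of Flvcr2 (0.01) and the G77S versus KO value of Tmed10 (0.24), each on log2(TPM + 1), and Flvcr2 in KO versus WT with a library left out (-0.63 to 0.12, the upper end without KO replicate 1). The cause was not tested. Of 528 alternative values for 36 combinations of gene and comparison, 485 kept direction and side of the threshold, 20 lost the call, 18 gained it and 5 reversed. Libraries with the same replicate number did not deviate together (r between -0.0207 and 0.0712), so the numbers were not read as pairs. The replicate block left 2 neighbours called in G77S versus KO, where Dpf3 had an adjusted p of 0.0548, and the calls of the other comparisons had the same number.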

Other observations

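The window also holds 53 genes of other types in the files (pseudogenes, antisense and long non-coding RNAs), of which 23 had a count in some library and 7 were tested. In edgeR 0 of these 7 were called and 0 had an unadjusted p under 0.05 in any comparison, DESeq2 called 0, and limma on log2(TPM + 1) called 1 in G77S versus KO (Gm6722). Over all genes edgeR called 0.122% to 4.19%, and 13.0% to 20.7% had an unadjusted p under 0.05. In G77S versus KO limma called 13.3% of all genes. The nearest tested one, the antisense RNA Gm17139, has its lower coordinate 144.9 kb after the Isca2 start, as does Arel1, a gene on the minus strand. It had 0.177 and 0.583 CPM in KO libraries, 0.42, 0.408 and 0 CPM in G77S libraries, and 2.68, 0.993 and 0.324 CPM in WT libraries, with WT replicate 1 the highest as for Arel1. Gm17139 held 91 counts in all, and the strand setting of the counting is not stated. Part of its reads may therefore belong to Arel1, and the 2 genes are not separate observations. The processed pseudogene Gm6722 had 0.472 and 2.38 CPM in KO libraries, 7.56, 5.71 and 4.6 CPM in G77S libraries, and 0.836, 6.85 and 3.38 CPM in WT libraries. Its G77S libraries lay above the KO libraries, at a log2 fold change of 2.05 with an adjusted p of 0.279 in edgeR. The processed pseudogene Gm5436 had 1.18 and 3.66 CPM in KO, 2.31, 2.24 and 2.86 CPM in G77S, and 2.06, 3.57 and 3.75 CPM in WT libraries, with log2 fold changes of -0.37 in KO versus WT and -0.34 in G77S versus WT.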
